A study of Mus musculus with 2 samples.

Results

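Genes of 10 myeloid C-type lectin receptors were followed in RNA from sorted small peritoneal macrophages, which derive from monocytes and live in the peritoneal cavity. The genes were Clec4a1, Clec4a2, Clec4a3, Clec4d, Clec4e, Clec4n, Clec5a, Clec7a, Clec10a and Clec12a, chosen by name from the 55487 genes of the count table, and all 10 were found. The LPS+LCC-12 group was 1 library of 66967 pooled cells from 8 mice, and the LPS group was 1 library of 102283 pooled cells from 7 mice. Mice of both groups were male SWISS mice, an outbred stock, 5 weeks of age, and received 20 mg/kg lipopolysaccharide (LPS) from Escherichia coli into the peritoneum. At 6 h all mice were given a subcutaneous 30 mL/kg of saline, and at 22 h they were killed. The LPS+LCC-12 mice also received 0.3 mg/kg LCC-12, a compound known to target mitochondrial copper, 6 h after LPS. Every mouse had received LPS, and mice without LPS were not analysed here. Since a group was 1 library, nothing was tested, and every difference is one between 2 pools without a replicate check.

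C-type lectin receptors are membrane proteins with a folded lectin-like domain that binds sugars, glycolipids or proteins of microbes and of damaged cells. The activating receptors signal through an immunoreceptor tyrosine-based activation motif (ITAM), carried in their own tail or by the adaptors encoded by Fcer1g and Tyrobp, which recruits the kinase SYK and then CARD9 and NF-kB. The inhibitory ones carry an ITIM, a motif that recruits phosphatases such as SHP-1. On peritoneal macrophages and on incoming monocytes and neutrophils, they are known for the recognition of fungi and mycobacteria.

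One receptor gene stood out in size. Clec7a, which encodes Dectin-1, the receptor for fungal beta-glucan with an ITAM-like motif in its own tail, was 3.38-fold higher in the LPS+LCC-12 library. The other 9 genes were within 2-fold. Of these, Clec5a, Clec4n, Clec4d, Clec4a2 and Clec4e were lower and Clec12a was higher beyond counting error under each of 5 scalings. Clec10a and Clec4a1 were higher beyond it under 4 and 3 of the 5 scalings, and Clec4a3 was lower beyond it under 2. The rule for a counted difference was at least 2-fold and at least 50 counts in the higher library, and all 10 genes had that many in both libraries. By this rule 1 of 10 receptor genes was higher and 0 of 10 lower, beside 4.01% of 13482 genes higher and 6.65% lower. The median log2 ratio of the 10 genes, LPS+LCC-12 over LPS, was -0.10, and that of all 13482 genes was 0.02.

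**Figure D1:**
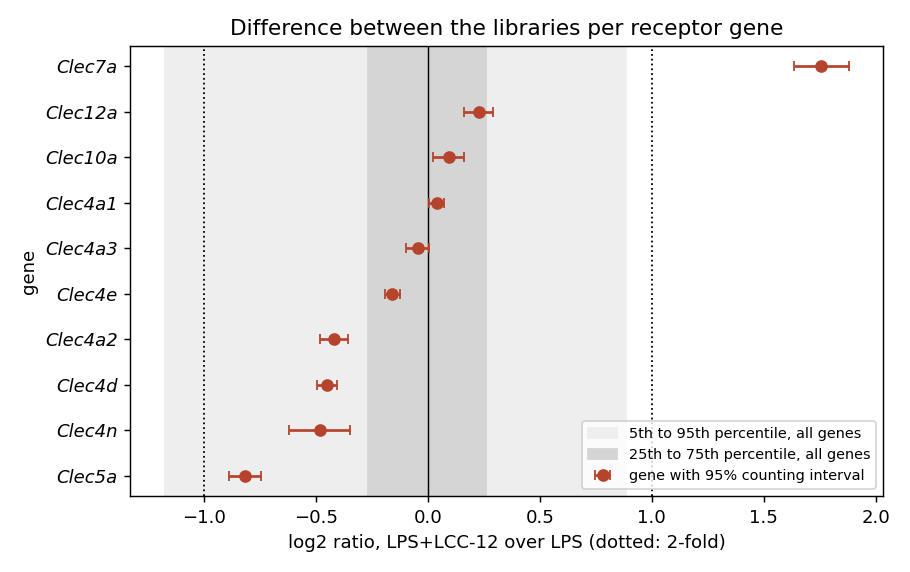
Log2 ratio of LPS+LCC-12 over LPS for each receptor gene, with 95% counting intervals and, as shading, the central ranges of all 13482 genes. Clec7a at 1.76 lies to the right of the 95th percentile of all genes, which is 0.88, and the other 9 genes lie between the 5th and 95th percentiles.

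The gene count totals were 47721888 in the LPS+LCC-12 library and 50618409 in the LPS library. The labelled cell type was set against marker lists. All 10 general macrophage markers were detected and within 2-fold, with a summed level of 9996 CPM (scaled counts per 1000000) in the LPS+LCC-12 library and 8651 CPM in the LPS library. Without Lyz2, which gave the most counts, the other 9 summed to 5488 CPM in the LPS+LCC-12 library and 5601 CPM in the LPS library. Of 15 small peritoneal macrophage markers 11 were at least 2-fold higher and none was at least 2-fold lower. Log2 ratios were above 0 for 13 of the 15 and below 0 for 2, Ccr2 at -0.02 and Fcgr1 at -0.29. The summed level of the 15 was 2688 CPM in the LPS+LCC-12 library and 1667 CPM in the LPS library. Of 15 large peritoneal macrophage markers 9 were at least 2-fold higher and none was at least 2-fold lower, with 2282 CPM in the LPS+LCC-12 library and 1586 CPM in the LPS library. The marker lists share some genes, and Adgre1, which gave the most counts here, is also a general macrophage marker. Without Adgre1, the other 14 large macrophage markers summed to 1457 CPM in the LPS+LCC-12 library and 747 CPM in the LPS library. Cd5l of that list, a secreted scavenger protein gene, had 10022 counts in the LPS+LCC-12 library and 466 in the LPS library, and was 22.2-fold higher. Timd4, a receptor for phosphatidylserine, had 5056 counts in the LPS+LCC-12 library and 318 in the LPS library, and was 16.4-fold higher. Of the 15 ratios in this list 11 were above 0 and 4 below 0. Gata6, the transcription factor of the large type, had 720 counts in the LPS+LCC-12 library and 529 in the LPS library, a log2 ratio of 0.49.

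Of 16 neutrophil markers, 14 reached 50 counts, all 14 had ratios below 0 and 10 were at least 2-fold lower. Their summed level was 3703 CPM in the LPS+LCC-12 library and 9808 CPM in the LPS library. Mmp8, a neutrophil collagenase, had 15924 counts in the LPS+LCC-12 library and 81324 in the LPS library, and S100a9, a subunit of calprotectin, had 70816 counts in the LPS+LCC-12 library and 195432 in the LPS library. Without S100a9, which gave the most counts, the other 15 summed to 2239 CPM in the LPS+LCC-12 library and 5895 CPM in the LPS library. Ly6g of this list had 275 counts (5.69 CPM) in the LPS+LCC-12 library and 662 counts (13.3 CPM) in the LPS library. Transcripts of some neutrophil markers were thus abundant in both libraries, and those of others were at low levels. The markers under 50 counts were Elane, with 3 counts in the LPS+LCC-12 library and 0 in the LPS library, and Mpo, with 9 counts in the LPS+LCC-12 library and 2 in the LPS library. Of 12 monocyte markers 9 had ratios below 0 and 5 of these were at least 2-fold lower, with a summed level of 4463 CPM in the LPS+LCC-12 library and 6602 CPM in the LPS library, and no monocyte marker was at 0. Neutrophils and monocytes are known to carry several of these receptors, among them those of Clec4d, Clec4e, Clec5a and Clec7a, and the part of these cells, or of large peritoneal macrophages, in each receptor difference was not tested. In RNA from pooled cells, fewer cells of a type and less RNA per cell cannot be told apart.

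Levels were first ordered within each library as TPM, which are counts divided by the exon length of the gene and scaled to 1000000 per library. The order began in both libraries with Clec4a1, Clec4d, Clec4a3, Clec4e, Clec4a2 and Clec10a. Clec4a1 led with 239.7 TPM in the LPS+LCC-12 library and 212.0 TPM in the LPS library, and above it stood fewer than 1% of protein-coding genes in either library. Clec7a was seventh of the receptor genes with 23.1 TPM (95% counting interval 22.2 to 24.1) in the LPS+LCC-12 library, and last with 6.21 TPM (5.76 to 6.69) in the LPS library. Its level was above that of 89.9% of protein-coding genes in the LPS+LCC-12 library and above that of 74.4% in the LPS library. Clec12a, Clec5a and Clec4n held the remaining places, at 20.4, 16.3 and 13.8 TPM in the LPS+LCC-12 library and at 15.8, 26.1 and 17.5 TPM in the LPS library. The counting intervals of neighbours in the order overlapped for 1 pair, Clec10a at 26.4 TPM and Clec5a at 26.1 TPM in the LPS library. The spread between mice was not measured, so this order holds for the pools and for these exon lengths only. The lengths count all annotated exons of a gene, and the counting intervals leave out their uncertainty. By CPM, Clec4e was the highest receptor gene in the LPS library at 314.7, against 284.5 for Clec4a1. In the LPS+LCC-12 library Clec4a1 had 292.4 CPM and Clec4e 281.8 CPM.

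**Figure D2:**
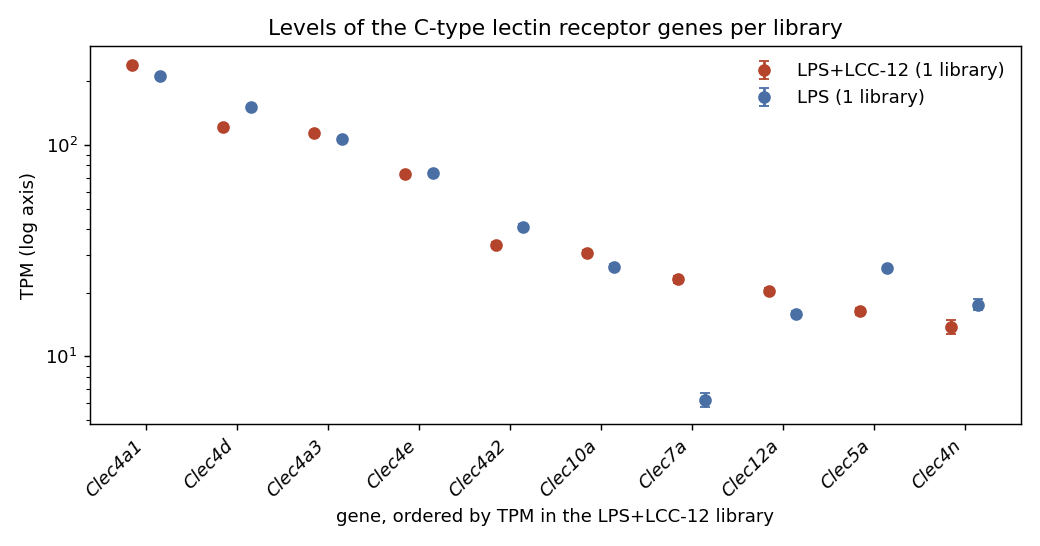
Level of each receptor gene as TPM on a log axis in the LPS+LCC-12 library and in the LPS library, with 95% counting intervals. Clec4a1 leads, at 239.7 TPM in the LPS+LCC-12 library and 212.0 TPM in the LPS library, and Clec7a is last in the LPS library at 6.21 TPM.

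TPM serves the order within a library. Differences between the libraries were taken from the counts after TMM scaling, which takes most genes as alike between the libraries and gave levels in CPM. The 2 scales differ by a shift common to all genes, which matters for ratios near 0. The summed level of the 10 genes was 685.2 TPM in the LPS+LCC-12 library and 675.8 TPM in the LPS library. In CPM the sum was 1192 in the LPS+LCC-12 library and 1295 in the LPS library. As TPM, Clec4e had overlapping intervals, at 72.5 (71.3 to 73.7) in the LPS+LCC-12 library and 73.6 (72.5 to 74.8) in the LPS library. Clec4a3, at 113.6 TPM in the LPS+LCC-12 library and 106.6 TPM in the LPS library, is the receptor gene whose direction differs between the scales.

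Clec7a had 2309 counts (47.7 CPM) in the LPS+LCC-12 library, against 705 counts (14.1 CPM) in the LPS library. The log2 ratio was 1.76, with a 95% counting interval of 1.64 to 1.88. Of all 13482 genes, 1.13% had a ratio as high or higher. Its share of the summed TPM of the 10 receptor genes was 3.37% in the LPS+LCC-12 library and 0.919% in the LPS library. The ratio of Clec7a counts to those of another receptor in the same library does not depend on the scaling. Against Clec12a, which lies in the same gene cluster, this count ratio was 0.541 in the LPS+LCC-12 library and 0.187 in the LPS library. Against Clec5a it was 0.975 in the LPS+LCC-12 library and 0.164 in the LPS library. Over all 9 such pairs the log2 difference of the ratio ran from 1.53 to 2.57, with every counting interval above 0. Clec7a lies on the minus strand of chromosome 6 at 129461591 to 129472779 (GRCm38), and GENCODE M21 classes it as a polymorphic pseudogene, a gene that codes for protein in some strains or alleles. Whether the SWISS mice carry a coding allele was not tested. No stretch of 100 bases, or of 50, in its transcripts was found in a transcript of another gene.

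The stretches before the transcription starts of Clec7a, Clec5a, Clec4d and Clec4e are shown because they belong to the highest and the lowest receptor gene by ratio and to an adjacent pair of receptor genes. The 250 bases come from RefSeq on GRCm38.p6, read 5′ to 3′ on the strand of the gene, from the most upstream start where RefSeq has several. Capitals mark the letters GAGGAA on either strand, a core of the binding sequence of PU.1, the myeloid transcription factor encoded by Spi1, and the letters TTGCNNAA, a form of the C/EBP motif. The Clec7a stretch is chr6:129472786-129473035 (minus strand), that of Clec5a chr6:40585806-40586055 (minus strand), that of Clec4d chr6:123261857-123262106 (plus strand) and that of Clec4e chr6:123289872-123290121 (minus strand).
Clec7a: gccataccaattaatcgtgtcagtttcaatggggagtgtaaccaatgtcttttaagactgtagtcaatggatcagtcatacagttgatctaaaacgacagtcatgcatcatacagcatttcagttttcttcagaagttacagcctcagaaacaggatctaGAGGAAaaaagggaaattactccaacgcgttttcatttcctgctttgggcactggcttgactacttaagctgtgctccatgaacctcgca
Clec5a: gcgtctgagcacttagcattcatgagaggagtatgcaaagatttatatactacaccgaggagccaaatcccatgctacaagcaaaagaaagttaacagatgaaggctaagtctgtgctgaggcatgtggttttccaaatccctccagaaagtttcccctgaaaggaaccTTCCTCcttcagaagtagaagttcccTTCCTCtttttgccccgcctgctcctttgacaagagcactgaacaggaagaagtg
Clec4d: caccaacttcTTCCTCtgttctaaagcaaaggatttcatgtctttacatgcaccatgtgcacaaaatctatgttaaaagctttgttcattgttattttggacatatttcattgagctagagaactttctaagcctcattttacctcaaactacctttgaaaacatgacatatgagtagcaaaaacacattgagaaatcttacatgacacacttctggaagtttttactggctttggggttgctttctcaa
Clec4e: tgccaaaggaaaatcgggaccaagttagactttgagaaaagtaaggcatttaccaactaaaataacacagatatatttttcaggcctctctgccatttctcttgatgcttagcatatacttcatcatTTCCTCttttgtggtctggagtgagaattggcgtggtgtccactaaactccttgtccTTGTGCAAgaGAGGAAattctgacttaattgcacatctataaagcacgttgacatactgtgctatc

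RefSeq entries were found for 8 of the 10 genes with at least 1 start and a full stretch, all but Clec4n and Clec10a. GAGGAA was present in 6 of the 8 stretches, those of Clec4a1, Clec4d, Clec4e, Clec5a, Clec7a and Clec12a, and in 23.1% of 27025 promoters of the same length. It was thus found before Clec7a, before Clec5a and before genes with ratios near 0. TTGCNNAA was present in 2 of the 8, those of Clec4e and Clec12a, and in 9.55% of all promoters. Letters of an AP-1 motif, TGANTCA, were in 1 of the 8, that of Clec12a, and in 6.85% of all promoters. The motifs were searched on both strands, and an overlap between GAGGAA and another motif was allowed. A match is a description of letters in this window only.

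Clec5a encodes MDL-1, an activating receptor that pairs with the adaptor of Tyrobp and is known as a host receptor of dengue virus. It had 2369 counts (49.0 CPM) in the LPS+LCC-12 library, against 4308 counts (86.3 CPM) in the LPS library, and was 1.76-fold lower (log2 ratio -0.82, interval -0.89 to -0.74). Of all 13482 genes, 8.99% had a ratio as low or lower. Clec5a lies on chromosome 6 at 40574894 to 40585821, far from the other receptor genes of that chromosome.

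Clec4e, Clec4d and Clec4n encode Mincle, MCL and Dectin-2, activating receptors that signal through the adaptor of Fcer1g. Mincle and MCL recognise the mycobacterial glycolipid cord factor, and Dectin-2 fungal mannans. Clec4n had 740 counts (15.3 CPM) in the LPS+LCC-12 library, against 1069 counts (21.4 CPM) in the LPS library, a log2 ratio of -0.48 (-0.62 to -0.35). Clec4d had 7338 counts (151.7 CPM) in the LPS+LCC-12 library, against 10352 counts (207.3 CPM) in the LPS library, a log2 ratio of -0.45 (-0.49 to -0.41). Clec4e had 13631 counts (281.8 CPM) in the LPS+LCC-12 library, against 15717 counts (314.7 CPM) in the LPS library, a log2 ratio of -0.16 (-0.19 to -0.13). All 3 were lower, and Clec4e by the smallest amount. Clec4d and Clec4e, whose products can pair in 1 complex, lie side by side on chromosome 6, at 123262111 to 123275265 on the plus strand and at 123281789 to 123289870 on the minus strand. Clec4n lies before them at 123229843 to 123247021.

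Clec4a2 and Clec12a encode inhibitory receptors with an ITIM, DCIR1 and MICL, of which MICL is known to bind uric acid crystals of dead cells. Clec4a2 had 3737 counts (77.3 CPM) in the LPS+LCC-12 library, against 5163 counts (103.4 CPM) in the LPS library, a log2 ratio of -0.42 (-0.48 to -0.36). Clec12a had 4267 counts (88.2 CPM) in the LPS+LCC-12 library, against 3767 counts (75.4 CPM) in the LPS library, a log2 ratio of 0.23 (0.16 to 0.29). The genes of these inhibitory receptors thus differed in opposite directions, both within 2-fold. Clec4a2 lies on chromosome 6 at 123106428 to 123143999 and Clec12a at 129342691 to 129365303, both on the plus strand. Of the stretches of 100 bases in Clec4a2 transcripts, 2.14% also occur in Clec4a4, so reads there could be shared. Of the stretches of 50 bases, 6.83% in Clec4a2 occur elsewhere, over 447 other genes, and 0.457% in Clec12a, over 75 other genes. A pseudogene within Clec4a2, Gm44132, had 0 counts in the LPS+LCC-12 library and 13 in the LPS library.

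The smallest differences were those of Clec4a1 and Clec4a3, further genes of the DCIR family, and of Clec10a. Clec4a1 had 14141 counts (292.4 CPM) in the LPS+LCC-12 library, against 14208 counts (284.5 CPM) in the LPS library, a log2 ratio of 0.04 (0.01 to 0.07). Clec4a3 had 5706 counts (118.0 CPM) in the LPS+LCC-12 library, against 6084 counts (121.8 CPM) in the LPS library, a log2 ratio of -0.05 (-0.10 to 0.01) that became 0.01 when totals without the most abundant genes set the scale. By the scaling used here its difference was within counting error. Clec10a, which encodes MGL1, a receptor for galactose and N-acetylgalactosamine found on macrophages and dendritic cells, had 3396 counts (70.2 CPM) in the LPS+LCC-12 library, against 3287 counts (65.8 CPM) in the LPS library. Its log2 ratio was 0.09 (0.02 to 0.16). Clec10a lies on chromosome 11 at 70156197 to 70170834, next to its close relative Mgl2, which had 264 counts in the LPS+LCC-12 library and 217 in the LPS library. Of the stretches of 100 bases in Clec10a transcripts, 2.64% also occur in Mgl2. Of its stretches of 50 bases, 9.02% occur elsewhere, over 49 other genes. Clec10a and Mgl2 are known as genes of alternatively activated macrophages, and Mgl2 had a log2 ratio of 0.33 (0.06 to 0.59). Mrc1, the mannose receptor of such cells, had 9694 counts in the LPS+LCC-12 library and 2922 in the LPS library (log2 ratio 1.78, 1.72 to 1.84). Chil3 and Retnla, from the monocyte and small peritoneal macrophage lists, are also known from such cells. Their log2 ratios were -1.33 and 2.66, in opposite directions. No list of such genes was made, and this state was not tested.

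Compared in pairs within a library, 41 of the 45 pairs of receptor genes had a changed count ratio beyond counting error. The 4 pairs whose interval held 0 were Clec4a2 with Clec4d, Clec4a2 with Clec4n, Clec4d with Clec4n, and Clec10a with Clec4a1. Clec4a2, Clec4d and Clec4n, which lie in the same cluster of chromosome 6, therefore had ratios that counting error did not separate, at -0.42, -0.45 and -0.48. That cluster also holds Clec4a1, Clec4a3 and Clec4e, whose pairs with Clec4a2, Clec4d and Clec4n all had intervals above 0. The log2 difference between Clec4a2 and Clec4n was 0.06 (-0.08 to 0.21).

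The genes of chromosome 6 lie in clusters, and the order of genes shows how far neighbours were alike. In the Dectin-2 cluster, from Clec4a1 to Clec4e at 122921848 to 123289870, 13 genes are annotated, 9 of them had at least 50 counts in 1 library or both, and 6 of those 9 are the receptor genes described here. The other 3 are close relatives at low levels. Clec4b1, which encodes DCAR, an activating receptor of mouse monocytes and dendritic cells, had 120 counts in the LPS+LCC-12 library and 40 in the LPS library, 3.07-fold higher (log2 ratio 1.62, 1.10 to 2.19). Clec4b2 had 13 counts in the LPS+LCC-12 library and 51 in the LPS library, a log2 ratio of -1.89 (-2.93 to -1.03). Clec4a4 had 99 counts in the LPS+LCC-12 library and 104 in the LPS library. Clec4b1 reached 50 counts in the LPS+LCC-12 library alone and Clec4b2 in the LPS library alone. The count minimum thus favoured large ratios for both, and no conclusion is drawn from their opposite directions. All 6 receptor genes around them had far more counts and were within 2-fold. No stretch of 100 bases in either of them occurs in another gene, and 8.68% of the stretches of 50 bases in Clec4b1 occur in Clec4a2.

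The region around Clec7a, from Clec2d to Klrk1 at 129180615 to 129623864, holds 23 annotated genes, of which 8 had at least 50 counts in 1 library or both. Directly after Clec7a lies Olr1, which encodes LOX-1, a receptor for oxidised low-density lipoprotein, with 5184 counts in the LPS+LCC-12 library and 2933 in the LPS library (log2 ratio 0.87, 0.80 to 0.93). On the other side, Clec1a, Clec9a, Clec1b and Clec12b had between 0 and 14 counts, and Clec12a is the next gene that could be read. Cd69, an early activation marker of leukocytes, had 419 counts in the LPS+LCC-12 library and 1704 in the LPS library and was lower with a log2 ratio of -1.98 (-2.14 to -1.82). Clec2d, whose product binds the receptor of Klrb1 genes and histones, had 5623 counts in the LPS+LCC-12 library and 7912 in the LPS library (log2 ratio -0.45, -0.50 to -0.40). Ratios in this region thus ran from -1.98 at Cd69 to 1.76 at Clec7a.

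**Figure D3:**
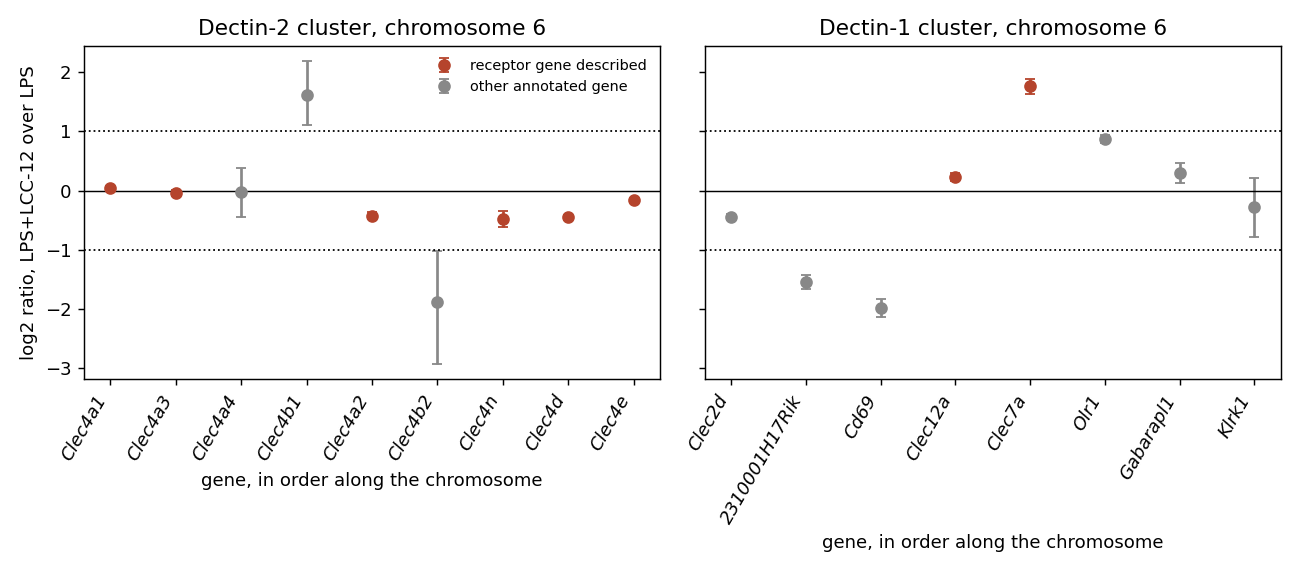
Log2 ratio of LPS+LCC-12 over LPS with 95% counting intervals for every gene with at least 50 counts in a library, in order along each cluster of chromosome 6. Receptor genes described here are red, and the dotted lines mark 2-fold. In the Dectin-2 cluster Clec4b1 at 1.62 and Clec4b2 at -1.89 are the genes past 2-fold, and in the Dectin-1 cluster Clec7a lies above and Cd69 and 2310001H17Rik lie below.

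Over all 21 other lectin-like genes listed from chromosome 6, 10 could be read, 1 was at least 2-fold higher, 2 were lower, and the median log2 ratio was -0.33. Clec4b1, Cd69 and Clec4b2 were those past 2-fold. Of 26 lectin receptor genes listed from other myeloid families, 11 could be read, with a median of 0.02, and Mrc1 was the 1 gene past 2-fold. The Cd209 genes, which encode relatives of human DC-SIGN, had at most 26 counts.

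The adaptor genes that carry the ITAM were at high levels with small differences. Fcer1g had 536.9 TPM in the LPS+LCC-12 library and 595.8 TPM in the LPS library, and its log2 ratio by scaled counts was -0.29 (-0.32 to -0.26). Tyrobp had 392.6 TPM in the LPS+LCC-12 library and 378.6 TPM in the LPS library, with a log2 ratio by scaled counts of -0.09 (-0.12 to -0.05), the opposite direction to its TPM. Hcst, an adaptor of natural killer cell receptors with a different motif, had 130 counts in the LPS+LCC-12 library and 165 in the LPS library, a log2 ratio of -0.30 (-0.64 to 0.04). Fcer1g, the partner of the products of Clec4e, Clec4d and Clec4n, was lower like them. Its difference was smaller than those of Clec4d and Clec4n and larger than that of Clec4e.

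Of 36 genes of SYK and CARD9 signalling none was at least 2-fold different, and the median log2 ratio was -0.06. The members with the most counts were Cybb, the catalytic subunit of the phagocyte oxidase, and Lyn, a SRC-family kinase, with log2 ratios of -0.02 and -0.34. Syk and Card9, named for their place in the pathway after their values were seen, had ratios of -0.65 (-0.67 to -0.63) and -0.06 (-0.12 to -0.01). Syk had 29441 counts in the LPS+LCC-12 library and 47718 in the LPS library.

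Among 11 readable genes of phosphatases and other negative regulators, 3 were at least 2-fold lower, none was higher, and the median was -0.30. Socs1, an inhibitor of cytokine receptor signalling, had 463 counts in the LPS+LCC-12 library and 1770 in the LPS library (log2 ratio -1.89). Ptpn22, a tyrosine phosphatase of leukocytes, had 1799 counts in the LPS+LCC-12 library and 5356 in the LPS library (log2 ratio -1.53). Tnfaip3, which encodes the NF-kB inhibitor A20, had 11052 counts in the LPS+LCC-12 library and 24737 in the LPS library (log2 ratio -1.12). The phosphatase genes Ptpn6, which encodes SHP-1, and Inpp5d, both named after their values were seen, had ratios of -0.52 and -0.15, within 2-fold.

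The list of mediators known to be induced through SYK and CARD9, and also by LPS itself, had the lowest median of these pathway lists at -0.87 over 17 genes. Of these, 5 were at least 2-fold lower and none was at least 2-fold higher. Ratios were below 0 for 13 of the 17 and above 0 for 4. The 4 were Egr2 at 0.56 (0.37 to 0.75), Egr3 at 0.35 (0.19 to 0.51), Il6 at 0.10 and Egr1 at 0.03. The intervals of Il6 and Egr1 held 0. Il12a, a subunit of interleukin 12, had 460 counts in the LPS+LCC-12 library and 1653 in the LPS library (log2 ratio -1.80). Cxcl2, a neutrophil chemoattractant, had 11375 counts in the LPS+LCC-12 library and 26491 in the LPS library (log2 ratio -1.17). Nos2, the inducible nitric oxide synthase, had 3925 counts in the LPS+LCC-12 library and 10408 in the LPS library (log2 ratio -1.36).

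Of 15 transcription factor genes of the myeloid lineage 3 were at least 2-fold higher, none was lower, and the median was 0.12. Irf4, a factor of alternatively activated macrophages and dendritic cells, had 1553 counts in the LPS+LCC-12 library and 342 in the LPS library (log2 ratio 2.23). Pparg, the lipid-sensing nuclear receptor, had 188 counts in the LPS+LCC-12 library and 53 in the LPS library (log2 ratio 1.86). Klf4 had 10196 counts in the LPS+LCC-12 library and 4885 in the LPS library (log2 ratio 1.11). Spi1, which encodes PU.1, and Cebpb, named here because their motifs were searched, had ratios of -0.16 and -0.24. Of the genes listed for endogenous ligands, 7 of 10 could be read, all within 2-fold, and Vim and Anxa1 had ratios of 0.15 and -0.14.

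**Figure D4:**
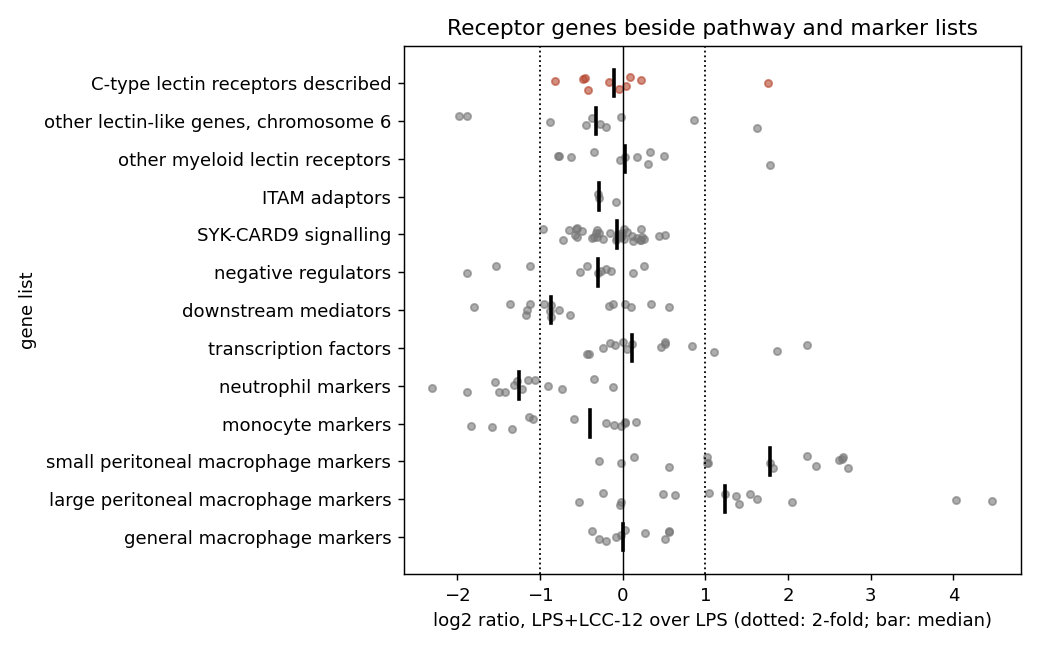
Log2 ratio of LPS+LCC-12 over LPS for each gene with at least 50 counts in a library, by list, with bars at the medians. The receptor genes in red have a median of -0.10, the downstream mediators -0.87, the neutrophil markers -1.25 and the small peritoneal macrophage markers 1.78.

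The receptor genes were also set beside the remaining marker lists. Clec10a and the DCIR genes are known from dendritic cells, and the conventional dendritic cell list, 7 of whose 10 genes could be read, had a summed level of 182.6 CPM in the LPS+LCC-12 library and 203.1 CPM in the LPS library. Most of it was Wdfy4, and the other 9 genes summed to 13.6 CPM in the LPS+LCC-12 library and 13.4 CPM in the LPS library. Cd209a of that list had 0 counts in the LPS+LCC-12 library and 1 in the LPS library. Flt3 had 37 counts in the LPS+LCC-12 library and 50 in the LPS library. Ccl22, the gene past 2-fold, had 117 counts in the LPS+LCC-12 library and 38 in the LPS library. The plasmacytoid dendritic cell list had a summed level of 76.2 CPM in the LPS+LCC-12 library and 71.4 CPM in the LPS library, of which Tcf4 gave 69.8 CPM in the LPS+LCC-12 library and 65.6 CPM in the LPS library, and Klk1 was at 0 in both. Mast cell markers summed to 67.8 CPM in the LPS+LCC-12 library and 212.9 CPM in the LPS library, and without Hdc, the histidine decarboxylase gene, to 5.54 CPM in the LPS+LCC-12 library and 15.5 CPM in the LPS library. Of 6 readable mast cell markers 5 were at least 2-fold lower, of which Tpsb2 reached 50 counts in the LPS library alone. B cell markers summed to 90.3 CPM in the LPS+LCC-12 library and 72.2 CPM in the LPS library. Mesothelial markers summed to 1.32 CPM in the LPS+LCC-12 library and 7.71 CPM in the LPS library. Krt8 had 3 counts in the LPS+LCC-12 library and 101 in the LPS library. All 4 readable mesothelial genes were at least 2-fold lower, but they reached 50 counts in the LPS library alone. The count minimum thus favoured lower ratios, and no conclusion is drawn from this count. Fibroblast markers summed to 3.64 CPM in the LPS+LCC-12 library and 12.4 CPM in the LPS library. Of 4 readable fibroblast genes 3 were at least 2-fold lower, and these too reached 50 counts in the LPS library alone. T and NK cell markers summed to 2.83 CPM in the LPS+LCC-12 library and 5.63 CPM in the LPS library. Of 2 readable genes 1 was at least 2-fold lower, Gzmb, which reached 50 counts in the LPS library alone. Eosinophil markers summed to 3.78 CPM in the LPS+LCC-12 library and 3.68 CPM in the LPS library, with Epx and Prg2 at 0 in both. The part of these cells in the receptor differences was not tested.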

How the data were processed

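RNA of pooled sorted cells was sequenced in 2 libraries. Stranded libraries were made from 10 ng of total RNA each, per the labels' protocols, with ribosomal depletion and 12 PCR cycles. The authors deposited raw counts for each gene without normalization. Reads were aligned with STAR to mm10, per the submitters' processing notes. How reads were counted, by strand or not and on which annotation, was not given in the sources used here. Symbols, coordinates and exon lengths came from GENCODE M21 (GRCm38), which matched 55394 of 55487 IDs.

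TMM scaling used edgeR 4.0.16 under R 4.3.3, and 0.5 counts were added for log2 ratios of LPS+LCC-12 over LPS. Intervals are 95% Clopper-Pearson intervals of the split of the counts, Poisson for TPM and a normal approximation for pairs of genes. They cover counting error only. They also take reads as independent, which PCR copies are not, so they can be too narrow even for counting error. The calculation was tested on simulated counts. The receptor genes and lists were chosen with earlier results of these data known. Named genes were the 10 receptors, the ITAM adaptors, and in each list up to 4 genes past 2-fold with the largest ratios, or the 2 with the most counts; not all are given. Gata6, S100a9, Ly6g, Ccr2, Fcgr1, Wdfy4, Tcf4, Lyz2, Adgre1, Egr1, Egr2, Egr3 and Il6 were named outside this rule after their values were seen. So were neighbours on the chromosome and the list genes given for low or 0 counts (Elane, Mpo, Flt3, Cd209a, Klk1, Epx and Prg2). Alternatives were other scalings (DESeq2 1.42.0 among them), count minimums, size limits, added counts and thinning.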

Additional observations from a re-analysis of the deposited data

How the results depend on the processing

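Clec7a was the only receptor gene past the limit in the higher direction under all scalings, count minimums, size limits, 5 added counts and thinning, with log2 ratios from 1.72 to 1.82. No receptor gene was at least 2-fold lower under these settings, except that 1 gene, Clec5a, passed a limit of 1.5-fold. Of 60 recomputed receptor ratios, 52 stayed within their counting intervals and 8 moved outside them. Clec7a, the 1 gene past 2-fold, kept its direction, which shifts of this size could not reverse. Clec4a3 changed sign when the totals left out mitochondrial genes and the 100 most abundant genes, and the median of the receptor genes was then -0.042. By the main rule 540 of 13482 genes were at least 2-fold higher and 896 lower. A changed minimum also changes how many genes are counted over. The counts of all genes at least 2-fold higher and lower were 1462 and 2387 with a minimum of 10 counts, 4143 and 6439 with a minimum of 1, and 298 and 438 with a minimum of 200. They were 1304 and 1794 with a limit of 1.5-fold, 195 and 340 with 3-fold, and 299 and 521 with the whole interval beyond 2-fold. When only protein-coding genes were counted, an alternative chosen after seeing the data, 428 were higher and 500 were lower. The cause was not tested where the count minimum and the size limit do not set it by construction. No paired analysis was possible because each group had 1 library. Depth limits genes of few counts, such as Clec4b2, and the spread between mice is not measured.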
